A study of Rattus norvegicus with 6 samples.

Results

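The 10 genes described here encode chaperones of the endoplasmic reticulum (ER) and parts of the unfolded protein response: Hspa5, Xbp1, Herpud1, Dnajb9, Dnajc3, Sdf2l1, Pdia4, Hsp90b1, Calr and Canx. They were taken as every probe set annotated to exactly 1 of these symbols, which gave 12 probe sets, 3 of them for Canx, of 31042 probe sets and 14217 named genes measured. All 12 passed the filter on dim signals, set at a mean log2 signal of 8.33. Transcript levels were read on 1-colour Affymetrix rat arrays. Of the 6 arrays, 4 hold GLI1-transformed RK3E cells and 2 hold parental RK3E cells. GLI1 belongs to the GLI family of transcription factors, through which Hedgehog signals change gene expression. RK3E is a rat kidney epithelial cell line immortalised with adenoviral E1A. Both groups grew in DMEM with serum. The transformed cells had received a GLI1 expression construct by lipid transfection, and single foci were picked and kept as lines. The array with no clone named and the clone I array are 1 sample each, clone II has 2 arrays, and the parental cells have 2.

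Proteins that enter the secretory pathway fold in the ER with the help of Hsp70, Hsp90, lectin-like and disulfide-forming chaperones. When unfolded protein builds up there, the sensors IRE1, PERK and ATF6 are activated. IRE1 splices Xbp1 mRNA, ATF6 is cleaved to a transcription factor, and both raise transcription of chaperone genes, while PERK slows translation and favours ATF4. Neither the splicing of Xbp1 nor any protein was measured here.

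A published promoter sequence of the unfolded protein response is the ER stress element, bound by NF-Y at its CCAAT end and by ATF6 at its CCACG end. In RefSeq promoter windows of the GRCr8 assembly, which run from 250 bases before to 50 bases after each annotated gene start, the 9 genes described here (all but Canx) had 1 window each. The element was searched on both strands as CCAAT, any 9 bases, then CCACG. It was found in the windows of 5 of the 9 genes, Hspa5, Xbp1, Dnajc3, Hsp90b1 and Calr, while 22 of all 33469 windows held it (0.0657%). Herpud1 held the second ER stress element, ATTGG, any 1 base, then CCACG, which 17 of all windows held (0.0508%). CCACG alone, which overlaps both elements, stood in all 9 windows and in 31.6% of all windows. The UPR element was searched only as the letters TGACGTGG, which were found in 0 of the 9 and in 0.595% of all windows. The Hspa5 window held TGACGTGA, which differs from those letters in the last base and was not searched for. The count of 0 therefore does not cover that form. All matches given here are matches of letters, and no binding was measured. The genes were listed as parts of the same response that the published elements belong to. The matches therefore describe the windows and are not an independent finding.

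The Hspa5 window (chr3:38452766-38453065, + strand) is shown whole, because its element lies closest to the gene start, from base -43 to base -25. The Dnajb9 window (chr6:67002002-67002301, - strand) is shown because Dnajb9 is the 1 gene that passed the test below and holds neither element. Capitals mark the ends of the element, and in Dnajb9 the lone CCACG.
Hspa5: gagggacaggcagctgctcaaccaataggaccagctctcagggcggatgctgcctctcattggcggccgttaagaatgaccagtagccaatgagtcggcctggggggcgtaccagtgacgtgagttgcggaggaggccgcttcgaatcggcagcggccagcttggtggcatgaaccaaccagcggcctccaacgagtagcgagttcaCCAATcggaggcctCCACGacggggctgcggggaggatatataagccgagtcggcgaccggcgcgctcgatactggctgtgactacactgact
Dnajb9: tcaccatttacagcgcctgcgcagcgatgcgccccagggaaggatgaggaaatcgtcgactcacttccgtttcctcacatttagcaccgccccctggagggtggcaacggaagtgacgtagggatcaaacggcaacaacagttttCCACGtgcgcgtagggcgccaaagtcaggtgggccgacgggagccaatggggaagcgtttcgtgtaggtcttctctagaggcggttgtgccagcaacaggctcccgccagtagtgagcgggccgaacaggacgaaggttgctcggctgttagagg

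The elements of the other genes are shown with 10 bases on either side, 5′ to 3′ on the strand of the gene, so that the fixed ends and the variable middle can be compared. Hsp90b1 held 2, the first on its own strand and the second on the opposite strand, where the ends read CGTGG and ATTGG; the Calr element was also on the opposite strand. The stretches lie at chr14:84604548-84604586 (+ strand) for Xbp1, chr15:102432524-102432562 (+) for Dnajc3, chr7:23012441-23012479 (-) and chr7:23012337-23012375 (-) for Hsp90b1, chr19:40213125-40213163 (+) for Calr and chr19:10614811-10614841 (-) for Herpud1.
Xbp1: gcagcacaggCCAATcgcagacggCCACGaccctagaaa
Dnajc3: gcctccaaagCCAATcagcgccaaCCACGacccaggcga
Hsp90b1, first: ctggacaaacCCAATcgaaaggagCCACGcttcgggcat
Hsp90b1, second: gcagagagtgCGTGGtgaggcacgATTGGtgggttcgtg
Calr: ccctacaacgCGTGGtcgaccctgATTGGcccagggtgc
Herpud1: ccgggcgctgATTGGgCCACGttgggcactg

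**Figure D1:**
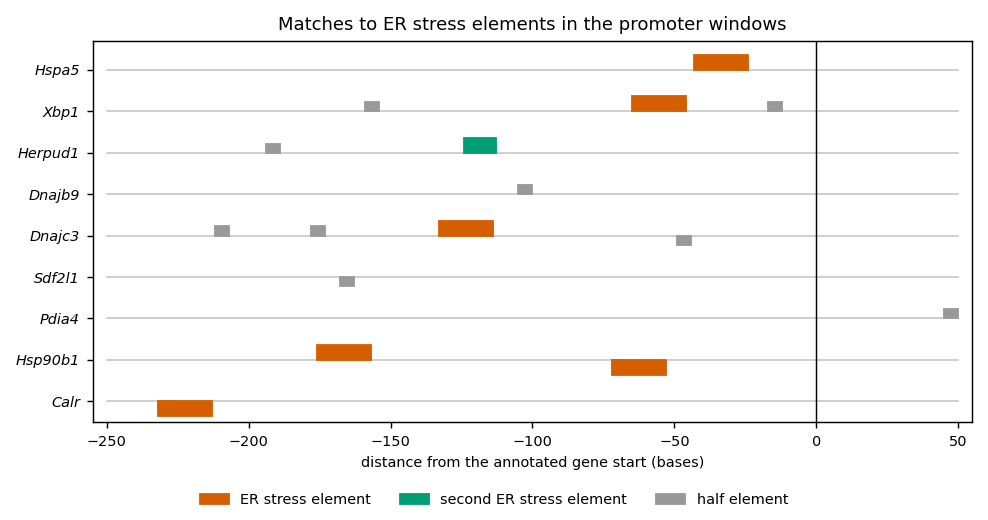
Matches to ER stress elements in the promoter windows of 9 genes, by distance in bases from the annotated gene start. Boxes above a line lie on the strand of the gene and boxes below it on the opposite strand. The full element stands in 5 windows, in 2 copies in Hsp90b1, and Dnajb9, Sdf2l1 and Pdia4 hold only CCACG (grey).

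Across the series each array held 31099 probe sets, and log2 signals correlated at 0.882 to 0.930 between any 2 arrays. Gli1 gave log2 signals of 11.71 to 13.15 on the GLI1 arrays and 5.17 and 6.50 on the parental arrays; both parental values lay under the filter on dim signals, so no size of the difference is given. The GAPDH 3′/5′ ratio, which grows as RNA degrades, was 2.09 with no clone named and 1.45 in clone I. It was 7.52 in replicate 1 and 1.39 in replicate 2 of clone II, and 3.66 in replicate 1 and 1.43 in replicate 2 of parental cells. Of 12 epithelial markers 9 lay under the signal filter, among them Krt18 (signals of 70.9 to 155 on GLI1 arrays, 54.1 to 139 on parental arrays). Only Krt8, Epcam and Ocln were tested, and none of them passed between GLI1-transformed and parental cells. Epcam lay near the filter, at log2 8.77 and 8.92 on parental arrays and 9.23 and 8.75 in clone II. The epithelial label is that of the cell line and was not tested. Of 5 tested fibroblast markers 3 fell (Col1a1, Col3a1 and Ogn) and 0 rose, each of the 3 with a GLI1 array under the filter. Pdgfra (log2 difference -0.06, limma adjusted p = 0.95) and Fbln1 (0.13, 0.887) did not pass, nor did the other Ogn probe sets (0.067 and 0.131). The signals of all 7 listed summed to 7391 to 15688 on GLI1 arrays against 118197 to 131764 on parental arrays. Most of the parental sum was Col1a1 (35400 and 37800) and Col3a1 (62200 and 71000). In such bulk samples fewer cells of a type and less RNA per cell cannot be told apart. Markers of endothelium had 1 tested gene, which did not pass, and of 2 tested immune markers Cd14 fell (log2 difference -1.82, adjusted p = 0.0301).

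Between GLI1-transformed and parental cells, 1 of the 10 genes passed the test. Of the 10 genes 0 rose, 1 fell (Dnajb9) and 9 did not pass (limma, Benjamini-Hochberg adjusted p under 0.05 over 18625 tested probe sets), where 13.1% of all tested probe sets were called, 5.84% as risen and 7.25% as fallen. At an unadjusted p under 0.05, 2 were higher and 1 was lower. The share of all tested probe sets at that threshold was not counted, so these counts have no background. The median log2 difference of the 10 genes was 0.05, with a range of -1.22 to 0.65, beside a median of 0.005 over all tested probe sets. The 4 GLI1 arrays lay entirely above both parental arrays for 2 genes (Sdf2l1 and Canx) and entirely below for 1 (Dnajb9), 3 of 10 in all, where 39.2% of all tested probe sets did not overlap, 19.0% above and 20.2% below.

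**Figure D2:**
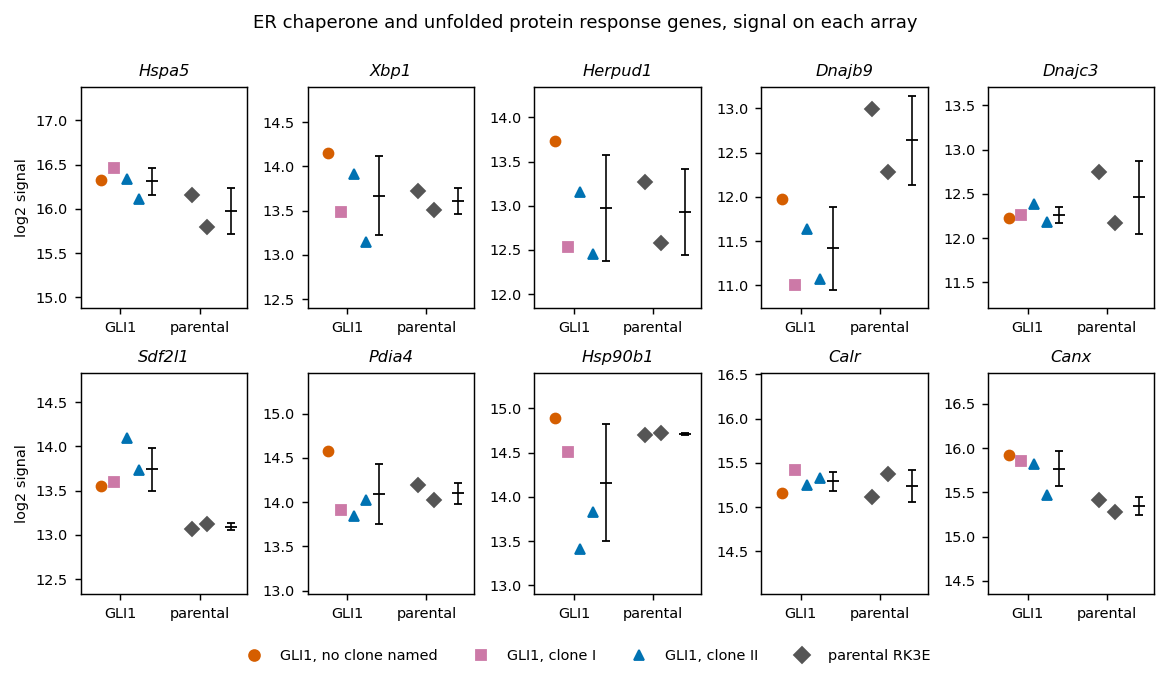
Log2 signal of the 10 genes on each array, GLI1-transformed cells on the left of each panel and parental cells on the right. Every panel spans the same height in log2 units but has its own level, Canx is shown by its brightest probe set, and bars give the mean and SD (n = 4 and n = 2). The groups are apart for Dnajb9, Sdf2l1 and Canx and overlap for the other 7 genes.

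Xbp1 encodes the transcription factor of the IRE1 branch. Its signal was 18218 with no clone named, 11412 in clone I, 15414 and 9077 in clone II, against 13522 and 11633 in parental cells. Both parental values lay inside the range of the GLI1 arrays. The log2 difference was 0.06 (SE 0.27, 95% interval -0.56 to 0.67, adjusted p = 0.915).

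Hspa5 encodes BiP, the Hsp70 chaperone of the ER lumen and the standard readout of the unfolded protein response. It gave 82341 with no clone named, 90264 in clone I, 82834 and 70857 in clone II, against 73303 and 56991 in parental cells. Clone II replicate 2 fell between the parental arrays, and the other 3 GLI1 arrays were above both. The log2 difference of 0.33 did not pass (SE 0.17, interval -0.05 to 0.71, adjusted p = 0.236). It was 0.08 with quantile normalization, 0.15 without parental replicate 2 and 0.51 without parental replicate 1.

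Hsp90b1 encodes GRP94, the Hsp90 chaperone of the ER, which folds integrins and Toll-like receptors among others. Its signal was 30305 with no clone named, 23370 in clone I, 10883 and 14550 in clone II, against 26636 and 26936 in parental cells. Both clone II arrays were the lowest of the 6, while the other GLI1 arrays lay on either side of the parental pair. Over all GLI1 arrays the difference was -0.55 (SE 0.36, interval -1.37 to 0.27, adjusted p = 0.357). It was -0.30 without clone II replicate 1, and the other fits that left out 1 array gave -0.79 to -0.44.

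Dnajb9, also known as ERdj4, is a J-domain co-chaperone of BiP that assists the disposal of misfolded proteins and holds IRE1 in its inactive state. Its signal was 4047 with no clone named, 2042 in clone I, 3187 and 2144 in clone II, against 8124 and 4990 in parental cells. Every GLI1 array was below both parental arrays. The log2 means were 11.42 ± 0.47 (SD, n = 4) in GLI1-transformed and 12.64 ± 0.50 (SD, n = 2) in parental cells, a 2.32-fold fall (log2 -1.22, SE 0.33, limma adjusted p = 0.0416). The call was lost with any 1 array left out except the array with no clone named, with adjusted p from 0.0511 to 0.329, and the difference was then -0.86 without parental replicate 1 and -1.57 without parental replicate 2. It was also lost with median centring (0.0517), with no filter (0.0505) and without the intensity trend (0.0733), in each case below the parental level.

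Dnajc3, a J-domain protein known as p58IPK that assists BiP and can restrain PERK, gave 4797 with no clone named, 4912 in clone I, 5348 and 4634 in clone II, against 6867 and 4599 in parental cells. The GLI1 arrays were close together and lay between the parental values. The log2 difference was -0.19 (SE 0.21, interval -0.66 to 0.28, adjusted p = 0.592).

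Sdf2l1 encodes a soluble partner of the ER J-domain proteins. Its signal was 12018 with no clone named, 12386 in clone I, 17402 and 13571 in clone II, against 8576 and 8916 in parental cells. All GLI1 arrays were above both parental arrays, which lay close together. The log2 means of 13.74 ± 0.24 (SD, n = 4) in GLI1-transformed cells and 13.09 ± 0.04 (SD, n = 2) in parental cells differed by 0.65 (SE 0.19, interval 0.21 to 1.08), and the difference just missed the threshold (adjusted p = 0.0574). It passed with the filter at the 60th percentile (0.0482) and with the first GLI1 array, of no named clone, left out (0.0391), while the adjusted p was 0.112 without the intensity trend and 0.0901 to 0.283 with any other array left out. With the arrays of highest GAPDH ratio left out, which leaves 1 parental array, the difference was 0.5.

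Canx encodes calnexin, the membrane-bound lectin chaperone that holds newly made glycoproteins. Its brightest probe set gave 62202 with no clone named, 59178 in clone I, 57730 and 45466 in clone II, against 43787 and 39825 in parental cells. The GLI1 arrays were all above the parental arrays, with a log2 difference of 0.42 (SE 0.17, adjusted p = 0.145). A second probe set was also separated (log2 difference 0.50, SE 0.16, adjusted p = 0.0683), and it passed with median centring (0.0407). The third gave 0.46 (SE 0.32, adjusted p = 0.383), with signals of 4738 to 9788 on GLI1 arrays overlapping 3912 and 6776 on parental arrays. The 3 probe sets had the same sign and 0 of them passed. With 1 array left out the third ranged from 0.07 without parental replicate 1 to 0.86 without parental replicate 2.

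Calr encodes calreticulin, the soluble lectin chaperone that works beside calnexin and stores calcium. Its signal was 36610 with no clone named, 43869 in clone I, 38922 and 41245 in clone II, against 35456 and 42409 in parental cells. It varied least of the 10 genes, over 0.31 on the log2 scale across the 6 arrays. The difference was 0.05 (SE 0.16, interval -0.31 to 0.40, adjusted p = 0.878).

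Pdia4, a protein disulfide isomerase that shuffles disulfide bonds in folding proteins, gave 24508 with no clone named, 15358 in clone I, 14704 and 16756 in clone II, against 18642 and 16604 in parental cells. The array with no clone named was the highest and the groups overlapped, with a log2 difference of -0.01 (SE 0.22, interval -0.52 to 0.49, adjusted p = 0.981). Herpud1 encodes an ER membrane protein that gathers the machinery of ER-associated degradation. Its signal was 13578 with no clone named, 5934 in clone I, 9173 and 5636 in clone II, against 9904 and 6119 in parental cells. The arrays fell into a high and a low trio that cut across the groups, and the log2 difference was 0.05 (SE 0.36, interval -0.78 to 0.87, adjusted p = 0.952).

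The high and low Herpud1 arrays also differed in RNA integrity. In each pair of arrays, no clone named with clone I, clone II replicate 1 with 2, and parental replicate 1 with 2, the array of higher GAPDH ratio had the higher Herpud1 signal, by 1.19, 0.70 and 0.69 on the log2 scale. Dnajb9 was higher on the same arrays by 0.99, 0.57 and 0.70, and Xbp1 by 0.67, 0.76 and 0.22. Canx followed by 0.07, 0.34 and 0.14, while Calr was lower on them by 0.26, 0.08 and 0.26, and the other 5 genes were mixed. Over all tested probe sets 17.7% were higher on the array of higher ratio in all 3 pairs and 15.2% were lower, against 4 and 1 of these 10 genes. In each pair the array of higher ratio was also the array numbered 1, and the fit of that number is given below. The part of RNA integrity in the levels of Herpud1, Xbp1 and Dnajb9 was not tested apart from that number. The first pair may also differ in clone. Its ratios were the closest of the 3 pairs (2.09 and 1.45), and its Herpud1 and Dnajb9 differences were the largest. For Dnajb9 the array of lower ratio gave 2042 (clone I), 2144 (clone II) and 4990 (parental), and the array of higher ratio 4047, 3187 and 8124, so that the parental value was the highest in each trio. With the arrays of highest ratio left out (replicate 1 of clone II and of parental cells), 1 parental array remained and the Dnajb9 difference was -0.94. Its call was lost in that fit, as were most calls over all tested probe sets.

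**Figure D3:**
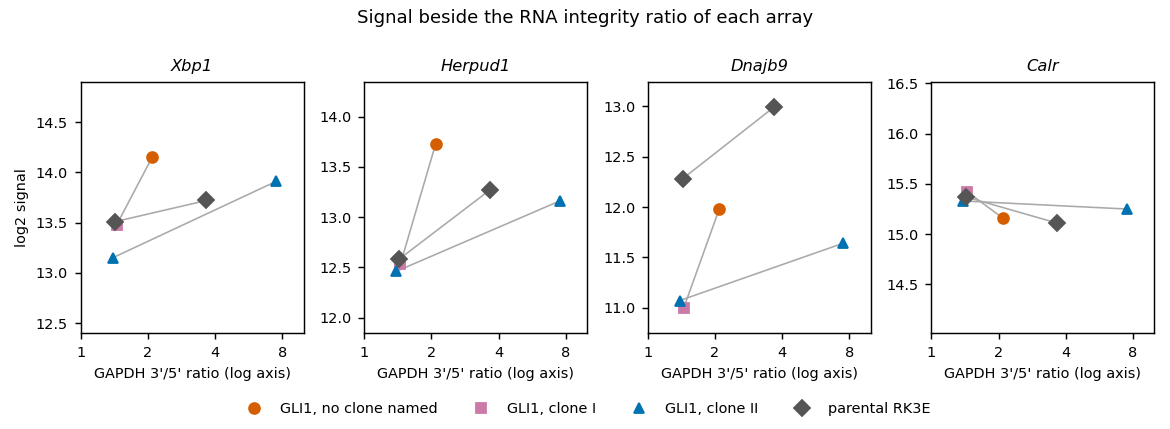
Log2 signal of Xbp1, Herpud1, Dnajb9 and Calr against the GAPDH 3′/5′ ratio of the same array (log axis); grey lines join the arrays of a pair. Xbp1, Herpud1 and Dnajb9 are higher on the array of higher ratio in all 3 pairs and Calr is lower, while the parental arrays stay above the GLI1 arrays only for Dnajb9.

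Across the 6 arrays Xbp1 and Herpud1 varied together (Pearson r = 0.93), as did Hspa5 and Canx (r = 0.90). Herpud1 and Calr ran opposite (r = -0.88), and so did Hsp90b1 and Sdf2l1 (r = -0.81). These describe 6 arrays that share the differences in clone and RNA integrity given above. Among 10239 other genes, those whose profile was most like that of Hspa5 were Adap2 and Trabd (r = 0.982 each), C13h1orf74 and LOC102555491 (r = 0.981 each) and Gmds, an enzyme of GDP-fucose synthesis (r = 0.978), and 0 of these 5 passed the test between GLI1-transformed and parental cells.

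The GLI1 lines were also set against parental cells separately, with both contrasts sharing the 2 parental arrays. In clone II, Hsp90b1 fell 2.13-fold (log2 -1.09, SE 0.22, limma adjusted p = 0.0195) and Sdf2l1 rose 1.76-fold (log2 0.81, SE 0.20, adjusted p = 0.0380), where 9.73% of all tested probe sets were called, 3.99% as risen and 5.74% as fallen. Dnajb9 differed by -1.28 and did not pass (adjusted p = 0.0767). Replicate 1 of clone II had the highest GAPDH ratio of all arrays (7.52) and gave the lowest Hsp90b1 and the highest Sdf2l1 signal. Replicate 2, with a ratio of 1.39, came next in both genes. The part of RNA integrity in the calls of Hsp90b1 and Sdf2l1 was not tested. Both calls were lost without the intensity trend (adjusted p = 0.0649 for Hsp90b1 and 0.102 for Sdf2l1), that of Hsp90b1 also with median centring (0.0574) and that of Sdf2l1 with no filter (0.0507). In the other GLI1 arrays 0 of the 10 genes rose and 0 fell by limma, where 12.4% of probe sets were called, 5.57% as risen and 6.83% as fallen. At an unadjusted p under 0.05 in these arrays, 2 were higher and 1 was lower, with no background counted. There Hsp90b1 gave -0.01 (SE 0.22, adjusted p = 0.983), Sdf2l1 0.48 (0.156), Dnajb9 -1.15 (0.0917) and Canx 0.54 (0.113).

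The difference between the lines was tested directly. Hsp90b1 in clone II differed from the other GLI1 arrays by -1.08 on the log2 scale (SE 0.22, interval -1.58 to -0.58, unadjusted p = 0.00103 by limma), and this did not pass the adjustment (adjusted p = 0.159). For Sdf2l1 the difference was 0.33 (adjusted p = 0.696), for Dnajb9 -0.14 (0.948) and for Hspa5 -0.17 (0.868). By limma 0 of the 10 genes passed, where 0.129% of probe sets were called, 0.0161% as higher and 0.113% as lower. At an unadjusted p under 0.05, 1 of the 10 genes differed, as did 1611 of all 18625 tested probe sets. Clone II is 1 clone with 2 arrays, and of the other GLI1 arrays only 1 has its clone named.

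**Figure D4:**
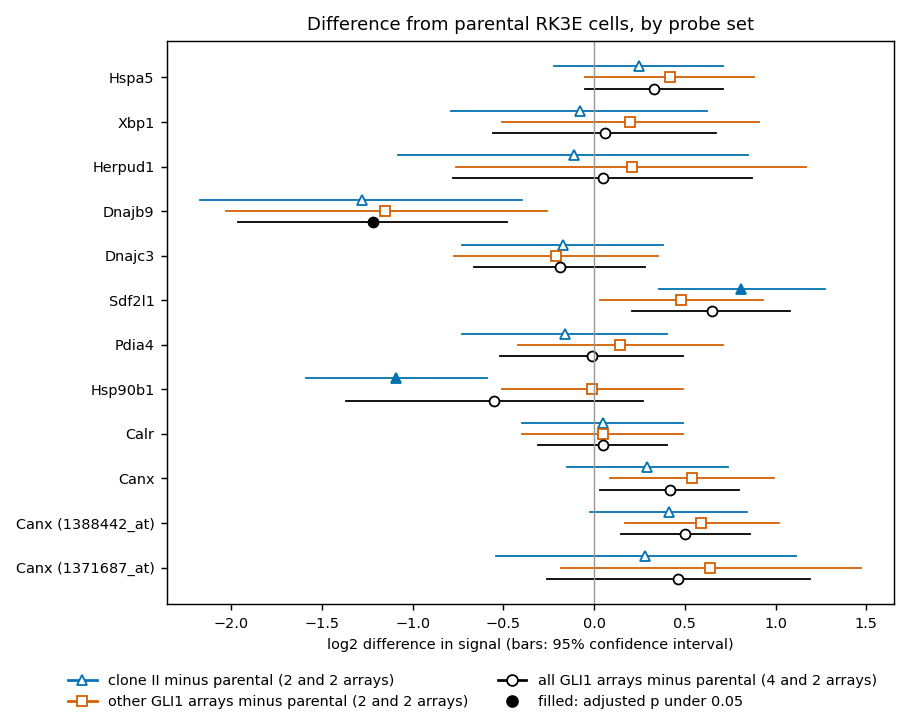
Log2 difference from parental cells for each of the 12 probe sets, in clone II (triangles), in the other GLI1 arrays (squares) and in all GLI1 arrays (circles), with 95% confidence intervals; filled symbols passed an adjusted p under 0.05. Filled are Dnajb9 over all GLI1 arrays and Hsp90b1 and Sdf2l1 in clone II.

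The other genes of protein folding in the ER were read from 8 lists with 162 tested genes in all. The test called 7 of them risen and 12 fallen and left 143 uncalled, where 15.6% of the 10240 named genes were called, 7.80% as risen and 7.75% as fallen, and the median was -0.10, beside 0.07 over all named genes. Centring every array on its median put the median over every tested probe set at 0.165 instead of 0.005. Then 11 list genes rose and 3 fell, and over all tested probe sets 1454 rose and 944 fell, in place of 1087 and 1351. The balance of the directions therefore depends on the scaling. With either parental array left out, 1 parental array remained. Most calls of list genes were then lost, as were most calls over all tested probe sets. The called list genes moved in the same comparison as the fallen fibroblast markers given above, and the part of those cells or genes in them was not tested.

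The sensors and their partners showed no called change. Of 14 tested genes in that list 0 rose and 0 fell by limma, with 1 higher and 1 lower at an unadjusted p under 0.05, and the median was 0.01. Atf6, the sensor that becomes a transcription factor, gave a log2 difference of 0.03 (SE 0.20, adjusted p = 0.950), Eif2ak3, which encodes PERK, -0.39 (SE 0.38, 0.543), and Mbtps1, the protease that makes the first cut in ATF6, -0.73 (SE 0.27, 0.113). Ern1, which encodes IRE1, was not analysed here.

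In the list of the PERK, ATF4 and CHOP branch, with 15 tested genes and a median of 0.86, the calls were 3 rises and 1 fall, and 11 did not pass. By limma 6 were higher and 2 were lower at an unadjusted p under 0.05. The asparagine synthetase gene Asns rose 3.15-fold, with log2 signals of 15.71 with no clone named, 15.39 in clone I, 15.56 and 14.64 in clone II, against 13.78 and 13.56 in parental cells (adjusted p = 0.0061, limma). Ddit3, which encodes the transcription factor CHOP, gave log2 signals of 12.90, 12.28, 12.26 and 11.75 in the same order, against 10.42 and 11.07 on the parental arrays, a 2.93-fold rise (0.0149). For both genes every GLI1 array was above both parental arrays. Sesn2, a stress-induced regulator of mTORC1, rose 2.46-fold (0.0227), though its second probe set gave 0.22 (0.849). The chromatin-associated stress gene Nupr1 fell 6.49-fold (0.0217). Atf4 itself differed by 1.13 (SE 0.39, adjusted p = 0.0943) and Trib3 by 1.98 (SE 0.62, 0.0696), neither of which passed, nor did the other Trib3 probe sets (0.0522 and 0.0617). Without parental replicate 1 the 4 calls were lost, and without parental replicate 2 those of Asns, Sesn2 and Nupr1 were.

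The list of disulfide and prolyl isomerases, which also holds related ER genes such as the oxidase gene Ero1b, had 22 tested genes. Of these 1 rose, 3 fell and 18 did not pass, with a median of -0.20. Fkbp11, a prolyl isomerase of secretory cells, rose 3.3-fold (log2 1.72, SE 0.32, adjusted p = 0.00996). Fkbp7, another ER prolyl isomerase, fell 2.28-fold (0.0220), the thioredoxin-domain gene Txndc5 1.86-fold (0.0221) and Erp29 1.56-fold (0.0432). The classical disulfide isomerases gave -0.19 for P4hb (adjusted p = 0.499), -0.21 for Pdia3 (0.429) and -0.12 for Pdia6 (0.65), though a second Pdia3 probe set fell (log2 -0.85, SE 0.22, adjusted p = 0.0366); these 3 genes were chosen after their values were seen. Of 20 other tested ER chaperones and co-chaperones 0 rose and 3 fell, with 1 higher at an unadjusted p under 0.05 and a median of -0.17. Lrpap1, a chaperone of LDL receptor family proteins, fell 1.92-fold (0.0123) and its second probe set fell with it (log2 -1.33, adjusted p = 0.0091), Cnpy4 fell 1.6-fold (0.0320) and the calcium-binding protein gene Calu 1.56-fold (0.0419).

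Of 12 tested genes of glycan control 0 rose and 1 fell, Uggt1, the glucosyltransferase that returns unfolded glycoproteins to calnexin and calreticulin (2.34-fold, adjusted p = 0.0426; 0 higher at an unadjusted p under 0.05). Of 21 tested genes of ER-associated degradation 1 rose and 1 fell. The ubiquitin-conjugating enzyme gene Ube2j2 rose (1.65-fold, 0.0418) and the peptide N-glycanase gene Ngly1 fell (1.71-fold, 0.0441). Derl1 did not pass by its brightest probe set (log2 -0.49, adjusted p = 0.127). Of its other probe sets, that at -0.83 fell (adjusted p = 0.0237) and that at -0.51 did not pass (0.257). In the translocon and signal peptide list of 30 tested genes the signal peptidase gene Sec11c (1.95-fold, 0.00779) and the oligosaccharyltransferase gene Rpn1 (1.59-fold, 0.0404) rose and 0 fell, with 3 lower at an unadjusted p under 0.05. Of 28 tested genes of transport from ER to Golgi 0 rose and 3 fell, with 1 higher at an unadjusted p under 0.05. The fallen genes were the COPII coat gene Sec24d (2.54-fold, 0.00645), the cargo receptor gene Tmed3 (2.15-fold, 0.0403) and the COPI coat gene Copb2 (1.57-fold, 0.0289). Sar1a did not pass by its brightest probe set (log2 -0.03, adjusted p = 0.934), though its other probe set rose (log2 0.7, adjusted p = 0.044). The medians of these 4 lists were -0.39, -0.10, 0.01 and -0.12. With median centring the calls of Txndc5, Erp29, Lrpap1, Cnpy4, Calu, Uggt1, Ngly1, Tmed3 and Copb2 were lost. With no filter 13 of the 19 called genes of the 8 lists kept their call and without the intensity trend 9 did; the rises of Rpn1 (0.0813 and 0.0990) and Ube2j2 (0.0512 and 0.0788) were lost in both, and the rise of Rpn1 and the fall of Uggt1 also with quantile normalization (0.0503 and 0.0501). Without clone I 9 of the 19 kept their call.

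**Figure D5:**
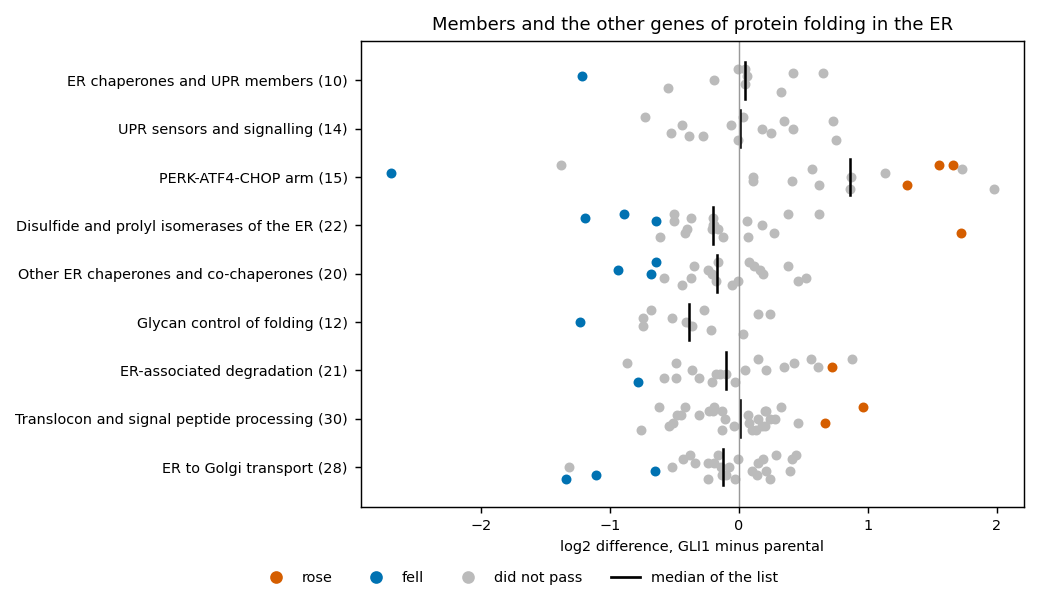
Log2 difference between GLI1-transformed and parental cells for each tested gene of the 10 members and of the 8 other lists of protein folding in the ER, with the number of tested genes in brackets and black lines at the medians. Coloured points passed an adjusted p under 0.05; the list medians lie between -0.39 and 0.86.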

How the data were processed

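The authors deposited intensity values, 1 for every probe set of an array and not on a log scale. The submitters' processing notes name MAS5 without a version. Every array had the same 2% trimmed mean of 2501. The samples are called biological replicates, with no word on separate cultures, so p-values measure the spread between these arrays, whose number limits the precision. The fit over all GLI1 arrays held no term for the clone, so the arrays of clone II counted in it as separate replicates.

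A floor of 1 was applied to the deposited signals before the log2 step. After 57 control probe sets were left out, probe sets above the 40th percentile of mean log2 signal (8.33) were tested, 18625 of 31042. Groups were compared with limma (version 3.58.1, R 4.3.3; lmFit, eBayes with an intensity trend, two-sided, Benjamini-Hochberg), with 4 residual degrees of freedom, or 3 in the model that separates clone II. A gene that rose, fell or was called had an adjusted p below 0.05, fold sizes are 2 raised to the size of the log2 difference, and errors are SDs of group means or SEs of differences. Levels of different probe sets were set against each other only to pick the brightest of a gene and in the summed marker signals. In those sums probe sets of stronger signal weigh more. For comparisons with parental cells the share of all probe sets at an unadjusted p under 0.05 was not counted. The unadjusted counts given there have no background beside them.

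Probe sets were named from a platform table; 20826 had 1 symbol, of which 20758 matched the GRCr8 gene list by identifier with 0 changed symbols. A gene with several probe sets is represented by the brightest. Named genes are the members, up to 4 called genes per list of smallest adjusted p with up to 2 of the minority direction, and the 5 most like Hspa5; Atf4, Trib3, the sensors and marker genes named beside them were chosen after their values were seen. The members and lists were chosen with earlier results of these data known. The end residues of the proteins were not analysed here. The promoter window of Canx is not reported here. Alternatives covered scaling, an added 32 before the log, the filter, the trend, single arrays left out and the replicate number as a block. The fit was also tested on simulated data.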

Additional observations from a re-analysis of the deposited data

How the results depend on the processing

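Sdf2l1, Canx and Hspa5 kept their positive sign, and Dnajb9 and Hsp90b1 their negative sign, under every alternative run between GLI1-transformed and parental cells. The count of fallen members was 0 in place of 1 with median centring, no filter, no intensity trend, or without the arrays of highest GAPDH ratio (replicate 1 of clone II and of parental cells); the count of risen members was 1 in place of 0 with the filter at the 60th percentile. With any 1 array left out, 0 to 1 members rose and 0 to 1 fell, 0 to 10 and 0 to 16 genes of the 8 lists did, and 228 to 1377 and 282 to 1653 of all probe sets did, against 1087 and 1351. Without a clone II array 8 to 9 list genes rose and 8 to 9 fell, and 824 to 906 and 1127 to 1182 of all probe sets did; without either other GLI1 array 599 to 1377 and 900 to 1653 did, and without a parental array 228 to 276 and 282 to 421. Risen and fallen list genes numbered 11 and 3 with median centring, and 0 and 0 without the arrays of highest GAPDH ratio, where 145 and 167 of all probe sets were called. Without the intensity trend 4 list genes fell and 705 probe sets rose. Median centring kept 10 of the 19 called list genes, and the rises made up 60.6% of all calls in place of 44.6%. In clone II the fallen count was 0 with median centring, the risen count 0 with no filter, and both 0 without the trend.

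Small differences changed sign. Left out 1 array at a time, Xbp1 ranged from -0.10 to 0.23 (-0.05 without parental replicate 2), Herpud1 from -0.30 to 0.39 (-0.21 without the first GLI1 array, of no named clone), Dnajc3 from -0.48 to 0.10, Pdia4 from -0.18 to 0.07 and Calr from -0.08 to 0.18. Without the arrays of highest GAPDH ratio Dnajc3 was 0.06, Pdia4 0.15 and Calr -0.07; with median centring Pdia4 was 0.15, and with quantile normalization Calr was -0.02. In clone II, median centring gave Xbp1 0.14, Herpud1 0.11, Dnajc3 0.05 and Pdia4 0.06, and quantile normalization gave Calr -0.02; in the other GLI1 arrays they gave Hsp90b1 0.09 and Calr -0.03. The cause of these shifts was not tested.

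With the replicate number as a block (replicate block), 0 members rose and 1 fell, Dnajb9 at -1.22 (adjusted p = 0.00639), and 1190 and 1437 of all probe sets were called; 19 of 19 called list genes kept their call. The number differences of the 3 pairs of arrays correlated across probe sets at 0.104, 0.068 and 0.321, so the numbers were not taken to pair the samples. In each pair the array numbered 1 was also the array of higher GAPDH ratio, so the block splits the arrays as that ratio does.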

Other observations

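The rat windows that hold the full ER stress element belong to 21 genes. Besides genes described above they include Creld2 and Ero1b, which encode an ER disulfide isomerase-like chaperone and an ER oxidase, and Derl3, an ER-associated degradation gene that was not analysed here. Creld2 gave a log2 difference of 0.52 between GLI1-transformed and parental cells (adjusted p = 0.0588, limma) and Ero1b -0.20 (0.712). These genes were chosen after the matches were seen.

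Among 4 tested markers of plasma cells and secretory glands, cells in which the XBP1 branch is known to be strong, Prdm1 rose, with log2 signals of 11.20 with no clone named, 10.95 in clone I, 9.83 and 9.25 in clone II, against 5.34 and 7.43 in parental cells (adjusted p = 0.00806). Sdc1 fell 1.75-fold (0.0350), a call lost with median centring (0.0818), and Mzb1 and Xbp1 did not pass. Both parental signals of Prdm1 lay under the filter on dim signals (log2 8.33), which the probe set passed through the GLI1 arrays, so no fold is given. The call was lost without parental replicate 1 (adjusted p = 0.0897).

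The difference between arrays numbered 1 and 2, fitted with the group as a term, was 0.86 for Herpud1 (SE 0.19, unadjusted p = 0.00191), 0.75 for Dnajb9 (SE 0.18, 0.00305) and 0.55 for Xbp1 (SE 0.18, 0.016). By limma 0 of 18625 probe sets passed the adjustment in that contrast (Herpud1 adjusted p = 0.303), and 1470 had an unadjusted p under 0.05.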
